A study of Mus musculus with 6 samples.

Results

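Vcam1, Icam1, Alcam, Saa3, Hp, C3, Ptx3 and Tnfaip2 are adhesion molecules and acute-phase or innate effector genes, most of them inducible by inflammatory cytokines. They were taken by symbol (VCAM1, ICAM1, ALCAM, SAA3, HP, C3, PTX3 and TNFAIP2, in capitals there) from a table of bulk RNA-seq, and all 8 were found among the 18180 genes that had values and a usable symbol. The study compared tumour cells sorted from orthotopic mouse pancreatic ductal adenocarcinoma (PDAC), which grow in the pancreas, in C57BL/6 mice, and were harvested after about 10 to 14 days. There were 2 groups of 3 libraries, titled KPC and KPSC, each made from 5 µg of total RNA with a TruSeq kit. The labels do not spell out either title, do not give the sort markers, and do not say whether a group is 1 cell line or whether its libraries are separate animals. A p-value here therefore measures only the spread between these samples, and that spread may be technical. The genotype field names Setd2, a histone H3 lysine 36 methyltransferase. It lists KPC libraries as the knockout and KPSC libraries as wild type, the reverse of what the added letter in KPSC would lead one to read. Groups therefore carry their titles here, and genotype is not used for any direction. The 8 genes were picked with their KPSC and KPC values known. Those values are therefore a description, with no test.

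Vcam1 and Icam1 are immunoglobulin-superfamily receptors on the cell surface that hold leukocytes through the integrins alpha4 beta1 and alphaL beta2, and Alcam is a relative that binds CD6 on T cells and itself. Saa3, a serum amyloid A protein, and Hp, haptoglobin, which captures free haemoglobin, are acute-phase proteins that mice also make outside the liver. C3 is the central component of complement, Ptx3 is a long pentraxin that recognises microbes and binds complement C1q, and Tnfaip2 was found as a gene induced by tumour necrosis factor (TNF) in endothelial cells and is related to an exocyst subunit. In many cell types TNF and interleukin-1 induce such genes through NF-kB, while interleukin-6 acts through STAT3 and C/EBP factors.

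Each library held between 14664123 and 17748954 reads over the listed genes. Values are normalised read counts, that is reads divided by a size factor per library, and means are printed ± SD over n = 3 libraries a group. Setd2 ranged from 1046 to 1338 in KPC and from 859 to 1042 in KPSC and did not pass the test (log2 fold change -0.31, SE 0.12, limma adjusted p = 0.148). A count over the whole gene does not check the deletion of single exons. KPSC replicate 3 was least like the others, its Pearson correlation across genes being 0.947 and 0.954 with KPSC replicates 1 and 2, which reached 0.984 with each other. Markers of acinar cells, the enzyme-secreting cells of the pancreas, took from 0.976% to 7.53% of reads in KPC and from 0.406% to 18.9% in KPSC, with the lowest share in KPSC replicate 3. Markers of epithelial tumour cells took 0.399% to 0.493% of reads in KPC and 0.639% to 0.794% in KPSC. Marker genes of leukocytes, macrophages and fibroblasts were also read in every library. The RNA may thus not stem from tumour cells alone, which was not tested.

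Stretches of promoter are shown for Saa3, C3 and Icam1, members that were lower in KPSC and whose sequences hold matches to a C/EBP-type pattern. RefSeq promoters of the GRCm38.p6 build were matched for 6 of the 8 genes, not for Vcam1 and Hp, whose promoters were not analysed here. Each window ran from 250 bases before the RefSeq gene start to 50 bases after it. That start differs from the one in the gene coordinates given below for every matched member but C3. The windows were searched on both strands for the consensus of kappaB sites, for TTNNGNAA, a pattern of C/EBP sites, for TTCNNNGAA, a pattern of STAT sites, for an interferon-type pattern, GAAA and GAAA with any 2 bases between them, and for TATAAA. The 250 bases before the start lie at chr7:46715677-46715926 on the minus strand for Saa3, at chr17:57228137-57228386 on the minus strand for C3 and at chr9:21015690-21015939 on the plus strand for Icam1. Capitals mark TTNNGNAA matches. These stretches held no match to the kappaB consensus as searched, GGGRNNYYCC, where R is A or G and Y is C or T. Near matches were not counted. In Icam1 the run TGGAAAttcc, which overlaps the capitals, departs from that consensus only by starting with T.
Saa3: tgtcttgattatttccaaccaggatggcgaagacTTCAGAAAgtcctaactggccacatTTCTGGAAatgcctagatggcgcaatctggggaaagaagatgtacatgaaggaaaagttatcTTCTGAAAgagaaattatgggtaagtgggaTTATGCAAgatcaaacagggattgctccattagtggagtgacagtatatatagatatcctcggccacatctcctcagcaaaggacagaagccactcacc
C3: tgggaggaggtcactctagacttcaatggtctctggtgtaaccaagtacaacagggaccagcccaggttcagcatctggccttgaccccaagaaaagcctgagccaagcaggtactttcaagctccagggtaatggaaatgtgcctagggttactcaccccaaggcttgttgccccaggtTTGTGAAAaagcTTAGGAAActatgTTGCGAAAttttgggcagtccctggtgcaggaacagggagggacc
Icam1: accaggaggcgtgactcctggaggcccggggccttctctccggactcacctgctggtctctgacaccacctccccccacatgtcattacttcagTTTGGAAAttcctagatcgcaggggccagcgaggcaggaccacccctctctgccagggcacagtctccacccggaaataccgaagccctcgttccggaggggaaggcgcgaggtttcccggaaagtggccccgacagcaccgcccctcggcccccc
Saa3 held 4 matches to TTNNGNAA, C3 held 3 close together near its start, and Icam1 held 1.

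TTNNGNAA is a common pattern. At least 1 match was present in 40.7% of 32851 RefSeq promoter windows of the same length, at least 3 in 3.60% and at least 4 in 0.852%. Ptx3 held 1 match as well, which makes 4 of 6 members with the pattern. The kappaB consensus was present in 8.46% of all windows and in 2 of 6 members, Ptx3 and Tnfaip2. TTCNNNGAA was present in 8.30% of windows and in Icam1 alone among the 6. The interferon-type pattern was present in 3.44% and in Saa3 alone, where it overlapped a TTNNGNAA match. TATAAA was present in 13.6% and in Icam1 and C3, after the RefSeq start in both. In Icam1 it lay before the start in the gene coordinates given below, chr9:21015985. A match is a run of letters, not a bound site, and a window without one says nothing about the factor.

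Vcam1 (chr3:116109949-116129688, GRCm38, minus strand) had the largest difference of the 8 genes. It was read at 17797, 17247 and 16111 in KPC and at 4103, 4269 and 4903 in KPSC, replicates being given in the order 1 to 3 here and below. The groups did not overlap, and the lowest KPC library lay far above the highest KPSC library. The mean went from 17051 ± 860 to 4425 ± 422, which was 3.86-fold lower in KPSC, with a log2 fold change of -1.95 (SE 0.13, on the log2(value + 1) scale used throughout). It was also one of the steadier members within groups, with a coefficient of variation of 5.04% in KPC and 9.54% in KPSC. Ranked by value per kilobase of gene length, Vcam1 was gene 287, 362 and 391 in the KPC libraries and gene 1926, 1796 and 1497 in the KPSC libraries. Leaving out any 1 library kept the log2 fold change between -2.02 and -1.90.

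Icam1 (chr9:21015985-21028817, plus strand) was lower in KPSC by a smaller amount. Its values were 1742, 1546 and 1697 in KPC and 773, 923 and 1362 in KPSC. The groups did not overlap, but KPSC replicate 3 came near the lowest KPC library. The means were 1662 ± 103 and 1019 ± 306, with a log2 fold change of -0.74 (SE 0.19), which was -0.97 without KPSC replicate 3. Alcam (chr16:52248996-52454074, minus strand) was read at 4608, 4140 and 3701 in KPC and at 4778, 4450 and 3941 in KPSC. Its groups overlapped over most of their range, and its means of 4150 ± 454 and 4390 ± 422 gave a log2 fold change of 0.08 (SE 0.12). The value ranged from 0.00 to 0.16 when 1 library was left out, and it was -0.11 when all libraries were scaled to equal totals and -0.01 when they were scaled to equal totals outside acinar markers. Per kilobase, the mean in KPC was 1922 for Vcam1, 583 for Alcam and 381 for Icam1, and in KPSC it was 499, 616 and 234. Vcam1 was thus the highest of the adhesion members per kilobase in KPC, while in KPSC Alcam was.

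**Figure D1:**
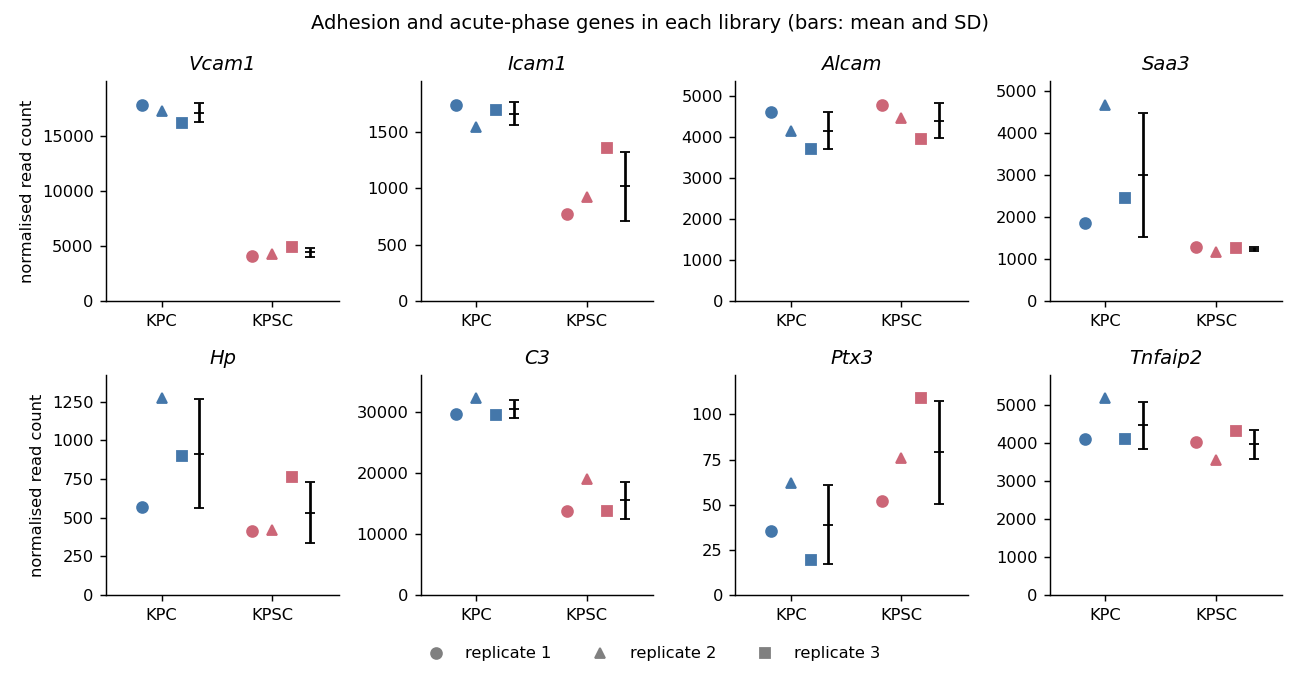
Normalised read count of each of the 8 genes (y axes, each starting at 0) in the KPC and KPSC libraries; each point is 1 library, its shape gives the replicate number, and bars give mean and SD. Vcam1, Icam1, Saa3 and C3 show no overlap between groups, while Alcam, Hp, Ptx3 and Tnfaip2 do overlap; Saa3 and Hp are highest in KPC replicate 2, at 4679 and 1270.

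Saa3 (chr7:46711998-46715700, minus strand) was high in KPC but uneven there. It was read at 1871, 4679 and 2466 in KPC and at 1293, 1183 and 1258 in KPSC. KPC replicate 2 stood above the other KPC libraries, and all KPC libraries lay above all KPSC libraries. The means were 3005 ± 1480 and 1245 ± 56.2, a coefficient of variation of 49.2% in KPC against 4.52% in KPSC. The log2 fold change was -1.16 (SE 0.29) and was -0.79 without KPC replicate 2.

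Hp (chr8:109575128-109579172, minus strand) was read at 569, 1270 and 901 in KPC and at 414, 422 and 763 in KPSC. KPSC replicate 3 lay above KPC replicate 1, so the groups overlapped. The means were 914 ± 350 and 533 ± 199, with a log2 fold change of -0.76 (SE 0.33) that ranged from -1.06 to -0.49 when 1 library was left out. The first of these is the value without KPC replicate 1 and the second the value without KPC replicate 2.

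C3 (chr17:57203970-57228136, minus strand) had the highest values of the 8 genes, also per kilobase. It was read at 29820, 32301 and 29599 in KPC and at 13886, 19109 and 13802 in KPSC. The KPC libraries lay close together and above every KPSC library, of which replicate 2 was the highest. The means were 30574 ± 1500 and 15599 ± 3040, with a log2 fold change of -0.99 (SE 0.20). Per kilobase C3 ranked 88, 105 and 124 among all genes in the KPC libraries and 291, 204 and 223 in the KPSC libraries. It thus remained among the abundant messages of the KPSC libraries.

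Ptx3 (chr3:66219910-66225805, plus strand) was the lowest of the 8, with 131 reads over the KPC libraries and 237 over the KPSC libraries. It was read at 35.5, 62.2 and 19.4 in KPC and at 51.9, 76.0 and 109 in KPSC. KPC replicate 2 lay above KPSC replicate 1, so the groups overlapped. The means were 39.0 ± 21.6 and 78.9 ± 28.6, with a log2 fold change of 1.08 (SE 0.46), which was 0.67 when KPC replicate 3 was left out and 1.49 when KPC replicate 2 was. Tnfaip2 (chr12:111442469-111455018, plus strand) was read at 4106, 5174 and 4117 in KPC and at 4020, 3564 and 4324 in KPSC. Apart from KPC replicate 2 the libraries were intermixed, and the means of 4466 ± 613 and 3969 ± 382 gave a log2 fold change of -0.17 (SE 0.13). The value for Tnfaip2 was -0.06 without KPC replicate 2, -0.09 without KPSC replicate 2 and -0.36 with equal library totals.

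Of the 8 members, 4 were lower in KPSC with no overlap between groups (Vcam1, Icam1, Saa3 and C3), 0 were higher with no overlap, and 4 overlapped. Among the 16737 genes tested, 17.2% were lower with no overlap, 17.6% were higher with no overlap, and 34.8% did not overlap in either direction. The median log2 fold change was -0.75 over the members and 0.01 over all genes tested. The members were chosen from this contrast, so nothing is read from their count. In bulk RNA, fewer cells of a type and less RNA per cell cannot be told apart.

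**Figure D2:**
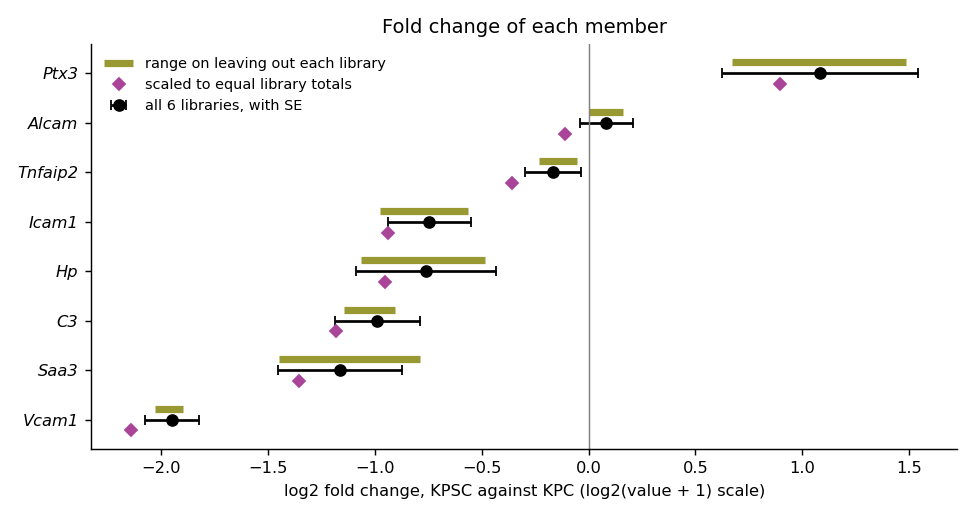
Log2 fold change of each of the 8 genes, KPSC against KPC (x axis, log2(value + 1) scale), with its standard error and the range of values when 1 library is left out. Vcam1 is farthest to the left at -1.95, Alcam lies at 0.08 and Ptx3 is farthest to the right at 1.08.

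The members did not share a single profile over the 6 libraries. The distance between members was taken as the root mean square difference of their log2 values after each gene was centred on its own mean. Alcam and Tnfaip2, which differed least between groups, were the closest pair at 0.24. Icam1 and C3 were 0.35 apart, and Saa3 and Hp were 0.37 apart, the latter sharing their high value in KPC replicate 2 and intermediate value in KPC replicate 3. Vcam1 and Ptx3 were the farthest pair at 1.6.

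KPC replicate 2 was the highest KPC library for 5 of the 8 members (62.5%), namely Saa3, Hp, C3, Ptx3 and Tnfaip2, against 31.3% of all genes tested. It was also the highest KPC library for 23 of 32 other NF-kB targets, 10 of 10 neutrophil markers, 7 of 10 endothelial, 6 of 8 mesothelial and 6 of 10 fibroblast markers, and for 8 of 13 pentraxin and exocyst relatives. Other lists went the other way, with 0 of 12 macrophage, 2 of 8 leukocyte, 2 of 11 lymphocyte and 0 of 19 acinar markers highest in KPC replicate 2. KPSC replicate 3 was the highest KPSC library for 5 of the 8 members (62.5%), against 41.0% of all genes tested. They were Vcam1, Icam1, Hp, Ptx3 and Tnfaip2. This library was also highest for 8 of 8 leukocyte, 9 of 10 fibroblast and 8 of 10 endothelial markers. The same held for 12 of 13 integrin partners and 20 of 32 other NF-kB targets. Lower shares were 3 of 12 macrophage, 3 of 10 neutrophil, 2 of 8 mesothelial and 0 of 19 acinar markers, and 7 of 25 other acute-phase genes. The summed neutrophil markers took from 0.0355% to 0.0797% of reads in KPC, highest in replicate 2, and from 0.0210% to 0.0276% in KPSC; none of the 10 was at 0 in all libraries. The part of these cell types in the Saa3 and Hp values was not tested. Genes typical of the liver were highest in another library, and 18 of 25 other acute-phase genes and 7 of 9 hepatocyte markers were highest, among KPC libraries, in replicate 3. Both lists hold Fgb, so their counts are not fully separate. Other lists share genes too, such as C1qa in the macrophage and complement lists and Esam in the endothelial and other adhesion lists. The high place of KPC replicate 3 was not particular to liver genes. KPC replicate 3 was also highest for 19 of 19 acinar, 8 of 12 macrophage, 8 of 11 lymphocyte and 5 of 8 leukocyte markers. Albumin (Alb) was read at 182, 207 and 670 in KPC and between 97.2 and 136 in KPSC.

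Markers of other cell types are given here by their share of reads, which acinar RNA also moves, and by their calls. Summed leukocyte markers took 0.132% to 0.149% of reads in KPC and 0.0709% to 0.115% in KPSC, and 3 of 8 fell (limma at an adjusted p under 0.05, as for every call below), where 6.76% of all genes tested fell. Macrophage markers took 0.420% to 0.456% and 0.304% to 0.376%, and 1 of 12 fell. Lymphocyte markers took 0.0106% to 0.0151% and 0.00307% to 0.00822%, and 6 of 11 fell. On the normalised scale, the mean log2(value + 1) over the list did not overlap between groups for leukocyte markers (11.02 to 11.30 in KPC, 10.51 to 10.88 in KPSC) or lymphocyte markers (6.78 to 7.18 and 5.44 to 5.85). It did overlap for macrophage markers (11.27 to 11.35 and 10.93 to 11.27) and neutrophil markers (6.48 to 7.98 and 6.22 to 7.11). In these lists, and in the neutrophil list where 2 of 10 fell, 0 genes rose with limma, edgeR or DESeq2, and 0 were higher at an unadjusted p under 0.05. Endothelial markers, from the cells in which Vcam1 and Icam1 induction is best known, took 0.0368% to 0.0455% of reads in KPC and 0.0269% to 0.0446% in KPSC; 0 of 10 were called in either direction by limma, edgeR or DESeq2, 0 had an unadjusted p under 0.05, and their median log2 fold change was -0.01. Fibroblast markers took 0.934% to 1.13% and 0.577% to 1.6%, with 1 of 10 falling. In the other direction, 6 of 10 epithelial tumour markers rose with limma and 8 with DESeq2, with a median log2 fold change of 0.80 and 0 lower with limma, edgeR or DESeq2 or at an unadjusted p under 0.05. Mesothelial markers took 0.101% to 0.149% of reads in KPC and 0.173% to 0.211% in KPSC, with 2 of 8 rising and 2 falling. Their median log2 fold change was -0.41, and their mean log2(value + 1) overlapped between groups (6.70 to 7.47 in KPC, 6.03 to 7.14 in KPSC). With 1 library left out, the falling counts ranged from 0 (without KPSC replicate 2) to 6 (without KPSC replicate 3) for leukocyte markers, from 1 (without KPC replicate 3) to 9 (without KPSC replicate 3) for lymphocyte markers, from 0 (without KPC replicate 1, KPC replicate 3 or KPSC replicate 1) to 1 for macrophage markers and from 0 to 3 (without KPSC replicate 3) for fibroblast markers, with 0 on leaving out any other library. Rising epithelial tumour markers ranged from 3 (without KPC replicate 1 or KPSC replicate 1 or 2) to 9 (without KPSC replicate 3), and mesothelial markers from 1 to 2 rising (1 without KPC replicate 1 or 3 or KPSC replicate 1 or 2) and from 0 (without KPC replicate 1 or 3 or KPSC replicate 1) to 1 falling. Without KPC replicate 2, 1 neutrophil marker rose. Of 19 acinar markers, 0 were called with all 6 libraries, at a median log2 fold change of 0.82. Without KPSC replicate 3, 15 of them rose, and 0 were called on leaving out any other library. The part of these cell types in the values of the 8 genes was not tested.

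**Figure D3:**
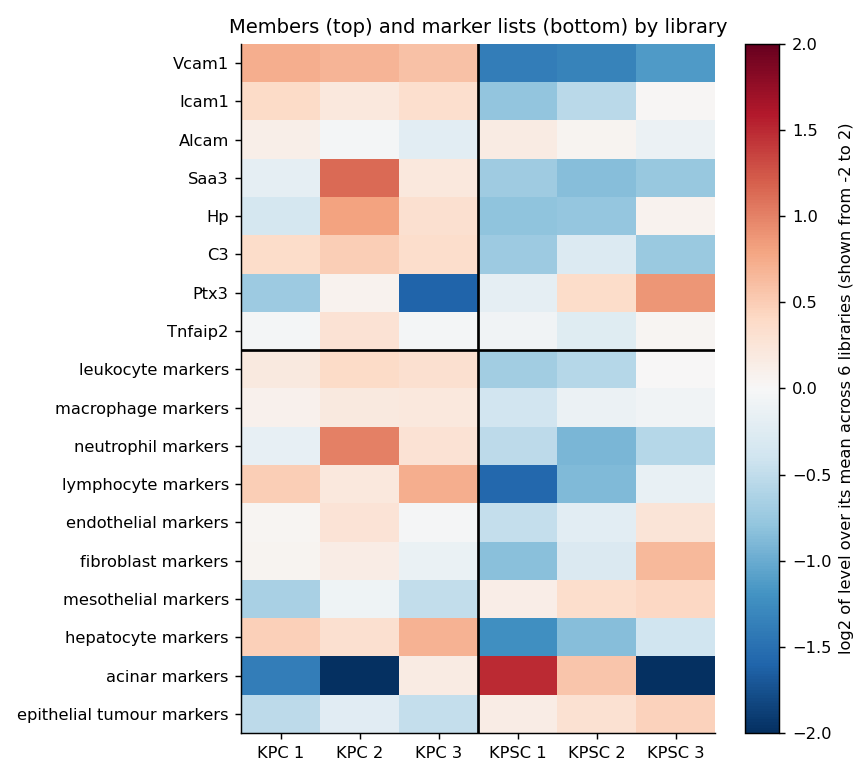
Heat map of the 8 genes (top) and of the marker lists (bottom) in the 6 libraries (columns); colour gives log2 of the level (normalised read count for genes, summed share of reads for lists) over its mean across the libraries, shown from -2 to 2. Saa3, Hp and the neutrophil markers are highest in KPC replicate 2, and acinar markers are highest in KPSC replicate 1 (18.9% of reads) and lowest in KPSC replicate 3 (0.406%).

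For each member, the genes whose centred log2 profile over the 6 libraries was most like it were taken from 11823 genes with a mean of at least 50. Saa3 was nearest to Usp18, a protease that removes the interferon-induced modifier ISG15, at a root mean square difference of 0.154, and next to Cxcl1, a chemokine that attracts neutrophils, at 0.159 and Bsn at 0.184. Hp was nearest to the chemokine genes Ccl4 at 0.125 and Ccl20 at 0.135, then to Apol9a at 0.178. Vcam1 was nearest to Klhl13 at 0.0862, Cpt1c at 0.101 and Atp8a1 at 0.128. Icam1 was nearest to Uba7, which encodes the enzyme that activates ISG15, at 0.0664. Next came the heparan sulfatase gene Sulf1 at 0.0678 and Cd247, which encodes the zeta chain of the T-cell receptor complex, at 0.0886. C3 was nearest to Scamp5 at 0.0410, Pla1a at 0.0750 and Sec14l2 at 0.0908. The nearest genes to Ptx3 were less close, with Idi1 at 0.272, Pappa at 0.291 and Afap1l1 at 0.300. Alcam (Rnf141, 0.0424, then Mblac2 and Sh3rf1) and Tnfaip2 (Slc4a8, 0.0358, then Zscan12 and Anxa13) differed little between groups, as did the genes nearest to them. Likeness over 6 libraries describes these libraries and nothing else.

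Medians of the genes beside each member lay between -0.23 and 0.08. Among expressed genes that start within 1 Mb (mean of at least 50), the median log2 fold change was -0.14 over 15 genes around Vcam1, -0.03 over 45 around Icam1, 0.08 over 22 around Saa3, -0.09 over 10 around Hp, -0.06 over 32 around C3, -0.23 over 5 around Ptx3 and 0.05 over 24 around Tnfaip2. Near Alcam only Cblb qualified, at -0.03. Of the 154 neighbours, 14 were called by limma (9.09%, against 14.4% of all genes tested). All genes tested include those with a mean under 50, so these shares cover unlike sets. Of the 14 calls, 5 were kept under all 16 alternatives and are named here with their values seen. Palmd fell near Vcam1 (log2 fold change -1.08, limma adjusted p = 0.00152), and Vav1, a signalling gene of blood cells, fell near C3 (-0.80, adjusted p = 0.00167). Near Saa3, Fam83e rose (2.51, adjusted p = 0.0017) and Lmtk3 fell (-1.83, adjusted p = 0.000887), and near Tnfaip2 the creatine kinase gene Ckb fell (-1.39, adjusted p = 0.000282).

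**Figure D4:**
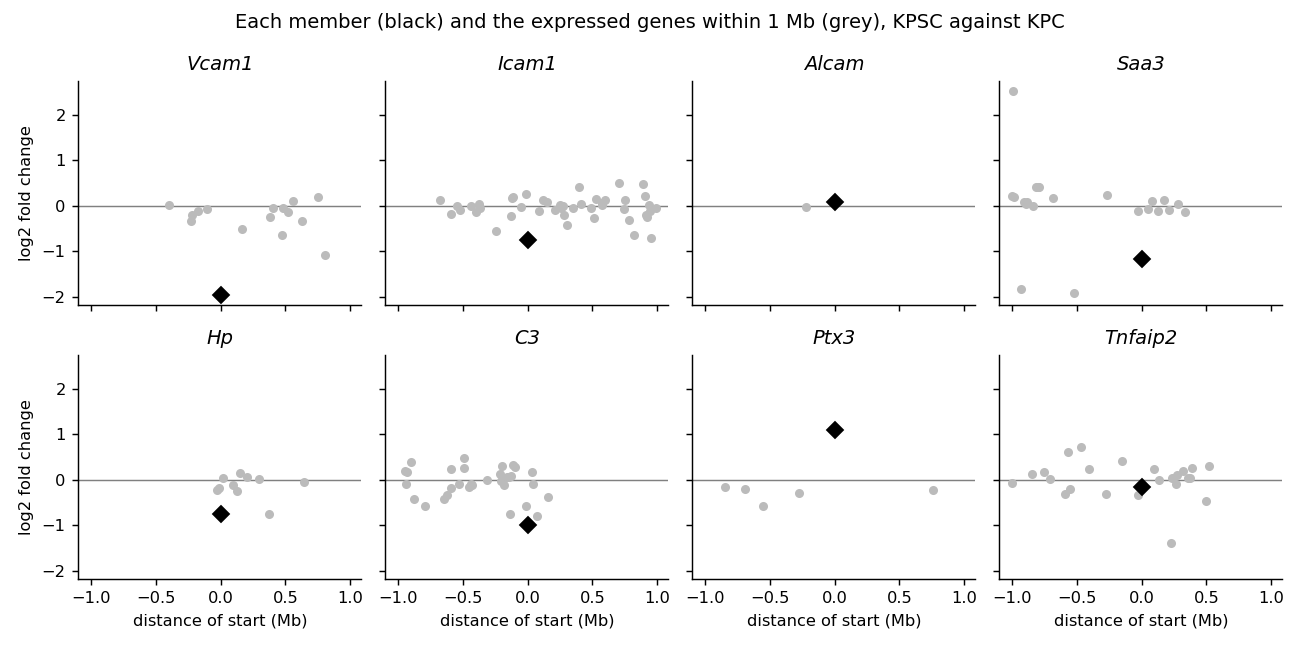
Log2 fold change, KPSC against KPC (y axis), of each of the 8 genes (black, at 0) and of expressed genes that start within 1 Mb (grey) by distance in Mb (x axis). The medians of the grey points lie between -0.23 and 0.08, with -0.14 around Vcam1, which itself lies at -1.95.

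Related genes were counted in lists by role, none of which holds a member. Over all 16737 genes tested, 2406 were called (14.4%), 7.61% higher and 6.76% lower in KPSC, and list counts are to be read against these shares. The lists were drawn up with earlier results of these data known, so the counts are a description of each list.

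Of the integrins and other partners of the adhesion members, 2 of 13 rose and 1 fell, with a median log2 fold change of -0.29. Itga9, an alpha subunit that can bind Vcam1, fell from 555 ± 26.2 to 227 ± 37.0 (-1.30 on the log2 scale, limma adjusted p = 0.00142, SE 0.14), a call kept under all 16 alternatives. Ezr, which encodes ezrin, a linker of Icam1 to the actin cytoskeleton, rose from 6737 ± 431 to 10061 ± 398 (0.58, adjusted p = 0.0163). Itgb7, the beta subunit that pairs with alpha4 in gut-homing lymphocytes, rose from 411 ± 81.2 to 1123 ± 586 (1.35, adjusted p = 0.0298), most in KPSC replicate 3 at 1797. Itga4, the alpha4 subunit of the main Vcam1 receptor, had a log2 fold change of -0.65 (adjusted p = 0.112), and Itgb1 one of 0.33 (adjusted p = 0.174). Itgal and Itgb2, the subunits of the main Icam1 receptor, stood at -0.50 (adjusted p = 0.172) and -0.29 (adjusted p = 0.441), and Cd6, the partner of Alcam, at -0.94 (adjusted p = 0.0526). The higher count was 1 without KPC replicate 1 or 2 or KPSC replicate 1, and 0 without KPC replicate 3 or KPSC replicate 2; the lower count was 6 without KPSC replicate 3. The call on Ezr was also lost with equal library totals (adjusted p = 0.255), as was that on Itgb7 (adjusted p = 0.0915).

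Among other adhesion molecules, 6 of 28 rose and 1 fell, with a median log2 fold change of -0.03. Ceacam1, a carcinoembryonic antigen family receptor, rose from 547 ± 65.1 to 2934 ± 514 (2.41, limma adjusted p = 0.000114). Jam2, a junctional adhesion molecule, rose from 170 ± 27.1 to 791 ± 106 (2.22, adjusted p = 0.000267), and Chl1, a neural adhesion molecule of the L1 family, from 104 ± 32.4 to 378 ± 6.50 (1.91, adjusted p = 0.00279). The gene that fell was Cadm1, which encodes an epithelial cell adhesion molecule, from 795 ± 154 to 247 ± 69.8 (-1.71, adjusted p = 0.00349). These calls were kept under all 16 alternatives. Without KPSC replicate 3 the lower count was 4, without KPC replicate 1 it was 2, and without KPC replicate 2 or KPSC replicate 2 the higher count was 4. The called adhesion molecules thus differed in both directions.

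Of the other acute-phase genes, 4 of 25 fell and 1 rose, with a median log2 fold change of -0.98. Many genes of this list were scarce, which limits the median. The gene at the median, Fga, was read at 22.7, 15.1 and 52.8 in KPC and at 18.1, 12.3 and 9.5 in KPSC. Crp, which encodes the short pentraxin C-reactive protein, fell from 162 ± 29.5 to 32.6 ± 16.8 (-2.42, limma adjusted p = 0.00911), and Cp, which encodes the copper carrier ceruloplasmin, from 20155 ± 999 to 8601 ± 1747 (-1.25, adjusted p = 0.00503). Steap4, a metalloreductase gene, also fell (-1.10, adjusted p = 0.0219). Lbp, which encodes the lipopolysaccharide-binding protein, rose from 1830 ± 267 to 6890 ± 2597 (1.84, adjusted p = 0.00624). The calls on Crp, Cp and Lbp were kept under all 16 alternatives, and that on Steap4 was lost under 6, among them leaving out KPC replicate 1 or 2 or KPSC replicate 1 or 2. The lower count was 2 without KPC replicate 2 or KPSC replicate 2, and the higher count was 2 without KPC replicate 3 or KPSC replicate 3.

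The relatives of Saa3 were scarce. Saa1 was read at 29.1, 37.8 and 97.0 in KPC and at 19.3, 14.5 and 17.3 in KPSC, a difference of -1.44 on the log2 scale (limma adjusted p = 0.0795), while Saa2 differed by -1.32 (adjusted p = 0.125). These are near-identical copies, so their split of reads is uncertain. Both were highest in KPC replicate 3, as Alb was, whereas Saa3 was highest in KPC replicate 2. Lcn2, which encodes the iron-siderophore binding protein lipocalin-2, ranged from 6314 to 11806 in KPC and was 8500, 5887 and 928 in KPSC, with a log2 fold change of -1.32 (adjusted p = 0.29). Hepatocyte markers took 0.0165% to 0.0214% of reads in KPC and 0.00564% to 0.00997% in KPSC, with 1 of 9 tested falling, and their part in the Crp and Saa1 values was not tested.

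Of the complement genes, 3 of 34 rose and 3 fell, with a median log2 fold change of -0.21. Masp1, a protease that starts the lectin pathway, rose from 37.0 ± 11.01 to 204 ± 59.9 (2.42, limma adjusted p = 0.00285). Cd55, the decay-accelerating factor that disassembles the C3 convertase, rose from 67.6 ± 18.1 to 336 ± 127 (2.27, adjusted p = 0.00341); both calls were kept under all 16 alternatives. Cr1l, which encodes the rodent C3 convertase regulator Crry, rose by a log2 fold change of 0.44 (adjusted p = 0.0275). Hc, which encodes complement C5, fell (-1.87, adjusted p = 0.0182), as did Serping1, the C1 inhibitor (-0.61, adjusted p = 0.0278), and the C1 protease gene C1ra (-0.77, adjusted p = 0.0369). C4b, a component of the classical and lectin pathways, stood at -0.45 (adjusted p = 0.508). C1qa, C1qb, C1qc and C1s1 stood at -0.60, -0.44, -0.56 and -0.66 (adjusted p from 0.0887 to 0.115), each lower with no overlap. Of the 34 genes, 9 were lower and 3 higher with no overlap, where 17.2% and 17.6% of all genes tested were. The lower count was 0 without KPC replicate 2 or 3, 1 without KPC replicate 1 or KPSC replicate 1 or 2, and 4 without KPSC replicate 3; the higher count was 2 without KPC replicate 1, 2 or 3 or KPSC replicate 1. Equal totals ended the call on Cr1l (adjusted p = 0.47).

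Among other pentraxins, exocyst genes and other genes named for induction by TNF, 2 of 13 rose and 2 fell, with a median log2 fold change of 0.03. Nptx1, a neuronal pentraxin, rose from 11.2 ± 6.48 to 601 ± 151 (5.73, SE 0.40, limma adjusted p = 0.000232), kept under all 16 alternatives. Tnfaip8l1 rose (0.72, adjusted p = 0.0194) while Tnfaip8l2, a negative regulator of immune signalling, fell (-0.66, adjusted p = 0.0221), as did the neuronal pentraxin receptor gene Nptxr (-0.42, adjusted p = 0.0434), whose call was lost on leaving out any 1 library (adjusted p from 0.0641 to 0.147). The lower count was 0 without KPC replicate 2 or 3 or KPSC replicate 1 or 2, and 1 without KPC replicate 1 or KPSC replicate 3; the higher count was 1 without KPC replicate 1 or 3 or KPSC replicate 1.

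The cytokines that induce such genes gave 3 falls and 0 rises among 22 tested, with a median log2 fold change of -0.24. In the higher direction 1 stood at an unadjusted p under 0.05, edgeR called 0 higher and DESeq2 called 1. Clcf1, an interleukin-6 family cytokine, fell from 2302 ± 195 to 1289 ± 127 (-0.84, limma adjusted p = 0.00296). Ltb, which encodes lymphotoxin beta, fell from 551 ± 110 to 296 ± 27.9 (-0.88, adjusted p = 0.0107), and Il11 fell from 45.2 ± 18.5 to 12.7 ± 0.950 (-1.67, adjusted p = 0.0261). Il1b, which encodes interleukin-1 beta, was read at 1406, 3431 and 2253 in KPC and at 1206, 610 and 1279 in KPSC. Its groups did not overlap and KPC replicate 2 was highest, but it did not pass the test (-1.18, adjusted p = 0.0737). Tnf stood at -0.22 (adjusted p = 0.643) and Il6 at -0.11 (adjusted p = 0.92). The call on Il11 was lost without KPC replicate 1 or 2 or KPSC replicate 1 or 2 (adjusted p from 0.0743 to 0.0956). The lower count was 2 without KPC replicate 1 or 2 or KPSC replicate 1 or 2; without KPSC replicate 3 the higher count was 1.

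Cytokine and Toll-like receptors gave 3 rises and 3 falls among 37, with a median log2 fold change of -0.06. Il1r2, the decoy receptor that captures interleukin-1, fell from 1125 ± 354 to 337 ± 109 (-1.74, limma adjusted p = 0.00761), kept under all 16 alternatives. The other called receptors moved less. Lifr rose by 0.90 (adjusted p = 0.0378), Il1rap, a co-receptor of interleukin-1, by 0.68 (adjusted p = 0.0306) and Tnfrsf1a, the main TNF receptor, by 0.42 (adjusted p = 0.0317). Ifngr1 stood at -0.40 (adjusted p = 0.0359) and Il17ra at -0.39 (adjusted p = 0.0325). Each of these calls was lost under 8 of 16 alternatives. The lower count was 1 on leaving out any library but KPSC replicate 3, without which it was 5; the higher count was 0 without KPC replicate 1 or KPSC replicate 1 or 2, 1 without KPC replicate 3, 2 without KPC replicate 2 and 4 without KPSC replicate 3. Equal totals left 0 receptors higher and 1 lower.

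Among transcription factors and their inhibitors, 3 of 35 rose and 4 fell, with a median log2 fold change of -0.08. Klf4 rose from 449 ± 14.3 to 918 ± 72.0 (1.03, limma adjusted p = 0.000869) and Klf2, known in endothelium as a restraint on Vcam1 induction, from 622 ± 46.9 to 1026 ± 109 (0.72, adjusted p = 0.00579). Chuk, which encodes a kinase of the NF-kB pathway, rose by 0.50 (adjusted p = 0.0324). Cyld and Tnip1, inhibitors of NF-kB signalling, fell by smaller amounts, with log2 fold changes of -0.48 (adjusted p = 0.0252) and -0.35 (adjusted p = 0.0282). Of the NF-kB subunits, Nfkb1 stood at -0.31 (adjusted p = 0.0884), Rela at -0.14 (adjusted p = 0.335) and Relb at -0.05 (adjusted p = 0.784). Cebpb, Cebpd and Stat3 stood at 0.02, -0.01 and -0.01 (adjusted p of 0.96, 0.974 and 0.981), each with overlapping groups.

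The call on Klf4 was kept under all 16 alternatives, and that on Klf2 was lost with equal library totals (limma adjusted p = 0.0711). Those on Chuk, Cyld and Tnip1 were lost under 8, 7 and 7 of 16 alternatives. The lower count of the list was 1 without KPC replicate 2 or KPSC replicate 1 or 2, 2 without KPC replicate 1 or 3 and 8 without KPSC replicate 3, and the higher count ranged from 2 to 4.

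Other genes known as NF-kB targets gave 8 falls and 1 rise among 32, with a median log2 fold change of -0.39. Csf3, which encodes the neutrophil growth factor G-CSF, was read at 424, 1091 and 576 in KPC and at 93.0, 67.0 and 66.5 in KPSC. Like Saa3 and Hp it was highest in KPC replicate 2, and its groups lay far apart. It fell from 697 ± 350 to 75.5 ± 15.1 (-3.09, SE 0.33, limma adjusted p = 0.00142). Ccl5, a chemokine for T cells and monocytes, fell from 770 ± 158 to 402 ± 50.7 (-0.92, adjusted p = 0.011). Both calls were kept under all 16 alternatives. Zc3h12a, which encodes the RNase regnase-1, fell (-0.69, adjusted p = 0.0181), and Plau, the urokinase gene, rose (0.70, adjusted p = 0.0277). Ccl2 stood at 0.17 (adjusted p = 0.668) and Cxcl2 at -0.54 (adjusted p = 0.699). The lower count was 6 without KPC replicate 1 or KPSC replicate 1, 3 without KPC replicate 2, 2 without KPC replicate 3 or KPSC replicate 2 and 15 without KPSC replicate 3; the higher count was 0 without KPC replicate 1 or 3 or KPSC replicate 1 or 2 and 2 without KPC replicate 2.

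**Figure D5:**
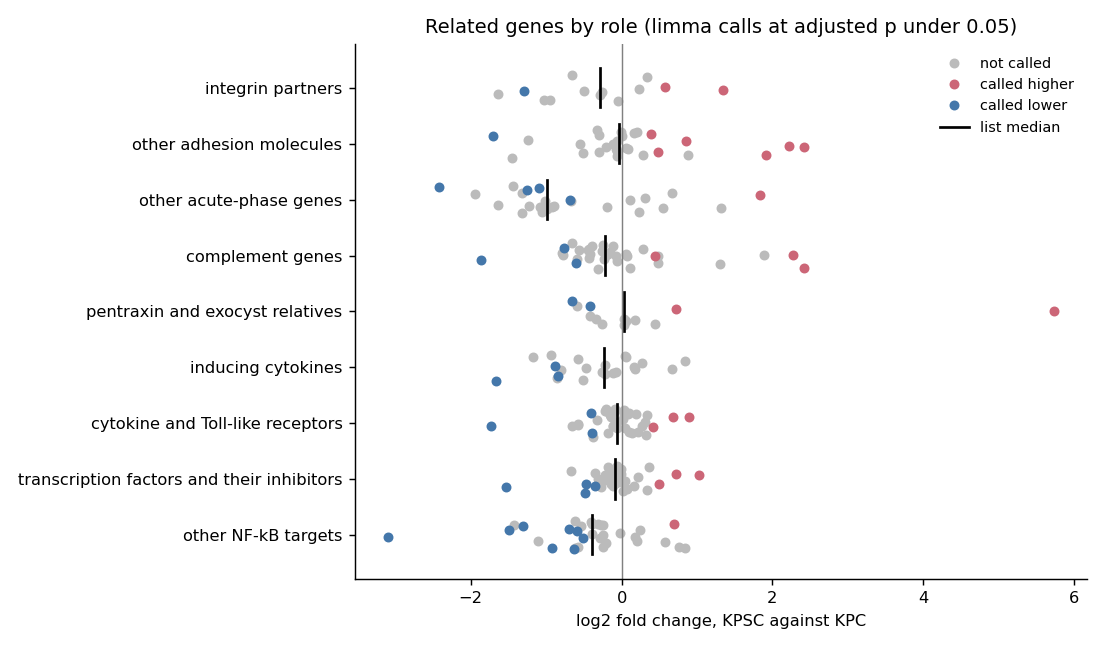
Log2 fold change, KPSC against KPC (x axis), of the tested genes in 9 lists by role (rows); each point is 1 gene, black lines mark list medians, and colour marks genes called by limma at an adjusted p under 0.05. The medians range from -0.98 for other acute-phase genes, many of them scarce, to 0.03 for pentraxin and exocyst relatives. Called genes stand on both sides in every list but the inducing cytokines.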

How the data were processed

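Bulk RNA was sequenced in 6 libraries, 3 titled KPC and 3 titled KPSC. Per the submitters' processing notes, CASAVA 1.7 and the mm10 build were used; the sources used here do not name the aligner, counter, annotation or strand setting, and reads of overlapping genes may be shared. The deposited table gives a signal per gene and library, and multiplying by size factors of 0.828 to 1.19 turned 100% of values into whole reads to within 0.01. The p-values that the authors deposited were not used. Of 25450 rows, 18185 had values; 5 of these, whose symbols had lost letters, were left out. Gene IDs were matched to GENCODE M21, the coordinates given being those of the table.

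The test was limma 3.58.1 in R 4.3.3, two-sided, with eBayes and a trend of variance on mean, Benjamini-Hochberg adjustment and a threshold of 0.05. It ran on log2(value + 1) for the 16737 genes that reached 1 in 3 or more libraries. A pseudocount of 1 understates the change of low genes. edgeR 4.0.16 and DESeq2 1.42.0 were run on the recovered reads as alternatives, beside other pseudocounts, filters and scalings, no trend, a replicate block and leaving out each library. The fits were also run on simulated data in which every gene had the same added spread and no library stood apart. That setting is simpler than these libraries, so it does not gauge the calls given here. All pairs of libraries differed by more than sampling noise (lowest chi-square per degree of freedom 36.7). Tables were made with Python 3.11.15.

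The members and lists were chosen with earlier results of these data known. Named genes were the 8 members, the called genes of each list with the smallest adjusted p (at most 3 a direction), and the 3 genes most like each member (mean of at least 50). Other list genes, such as receptor subunits, cytokines and factors that bear on a member, were named with their values seen. List genes without values, such as Icam4, were not analysed here. Some genes that the naming rule takes are not reported here.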

Additional observations from a re-analysis of the deposited data

How the results depend on the processing

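The direction of Vcam1, Icam1, Saa3, Hp, C3, Ptx3 and Tnfaip2 was kept under every alternative run, and that of Alcam was not. Equal library totals gave Vcam1 -2.14, Tnfaip2 -0.36 and Alcam -0.11, and equal totals outside acinar markers gave Alcam -0.01. These scalings moved the median of all genes by -0.19 and -0.09 on the log2 scale, and 29.9% and 39.1% of calls were then higher, against 53.0%.

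The 2406 calls (1274 higher, 1132 lower) became 1272 with equal totals (380 higher), 1543 without the trend (825 higher, 718 lower) and 1250 to 3051 with 1 library left out (698 to 1494 higher, 525 to 1557 lower), the highest without KPSC replicate 3. edgeR called 2474 and DESeq2 3070.

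Deviations of same-numbered libraries correlated at -0.04, -0.18 and -0.28, and those of differently numbered libraries across groups at -0.20 to 0.25. No pairing by replicate number was thus seen. These few correlations cannot decide it, because deviations from a mean of 3 libraries depend on each other. With the replicate block, 1014 genes were called (567 higher, 447 lower). The block left 1 integrin partner higher, 2 acute-phase genes lower, 1 pentraxin or exocyst relative higher and 0 lower, 1 cytokine lower, 0 receptors higher and 1 lower, 1 transcription factor or inhibitor lower, and 0 NF-kB targets higher and 2 lower.

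Of the list counts that moved by over 1.5 times, equal totals gave 0 integrin partners, 1 relative, 0 receptors, 1 transcription factor and 0 NF-kB targets higher, and 2 adhesion molecules, 1 relative, 1 receptor and 1 transcription factor lower. Equal totals outside acinar markers gave 1 integrin partner, 0 receptors and 0 NF-kB targets higher and 6 complement genes lower. Without the trend 1 integrin partner, 0 receptors and 0 NF-kB targets were higher, and 2 acute-phase genes, 1 complement gene, 0 relatives, 1 receptor, 1 transcription factor and 2 NF-kB targets were lower. DESeq2 gave 2 acute-phase genes, 1 cytokine and 2 NF-kB targets higher, and 3 integrin partners, 3 adhesion molecules, 6 complement genes and 6 cytokines lower. A filter of 10 gave 2 integrin partners lower. With 1 library left out, higher and lower counts ranged from 0 to 2 and 1 to 6 for integrin partners, 4 to 6 and 1 to 4 for adhesion molecules, 1 to 2 and 2 to 3 for acute-phase genes, 2 to 4 and 0 to 4 for complement, 1 to 2 and 0 to 1 for relatives, 0 to 1 and 2 to 4 for cytokines, 0 to 4 and 1 to 5 for receptors, 2 to 4 and 1 to 8 for transcription factors and 0 to 2 and 2 to 15 for NF-kB targets. The causes were not tested. With a window of 0.5 Mb the neighbour medians stayed between -0.30 and 0.05. Ptx3, at 131 and 237 reads, is the member most limited by depth.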
